A study of Homo sapiens with 4 samples.

Results

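The cytosolic and mitochondrial chaperone genes were taken as a list of 50 members, named by symbol, out of 39259 genes in the table: the heat shock factors HSF1 and HSF2, the HSP90, HSP70, J-protein and small heat shock families, the chaperonins, prefoldin and the co-chaperones. Of these, 49 matched by symbol and HSPB11 by its older name (now IFT25). All 50 were in the table, and 49 passed the filter of a mean of at least 1 FPKM (fragments per kilobase of gene length, scaled to the library total). CRYAB, the small heat shock protein alpha-B crystallin, did not pass: it had 0 to 1 fragments in each library. The cells were MDA-MB-231, an established human line of triple-negative breast cancer, grown in DMEM/F-12 medium with fetal bovine serum. Total RNA was sequenced from 2 libraries of wild-type cells (WT) and 2 libraries of cells labelled as a knockout of mdig (KO), a JmjC-domain oxygenase also called MINA53 and encoded by RIOX2. No treatment was given to either group, and whether the KO-labelled cells were 1 clone, or the replicates separate cultures, no source used here says. The p-values thus speak only of the variation among these 4 libraries, which may be technical.

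Chaperones bind unfolded proteins and let them fold without clumping. HSP70 takes up client chains that J-proteins deliver and releases them when nucleotide exchange factors such as the BAG proteins act on it. HSP90 matures kinases and steroid receptors with the help of co-chaperones, and the chaperonins enclose a folding protein in a ring. HSF1 is the main activator of these genes under heat or other proteotoxic stress, through heat shock elements made of alternating GAA and TTC units, and many tumor lines keep its targets high.

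The promoters are shown first because this element is the known HSF1 site, though only some members hold it in the windows searched. The RefSeq promoter table (GRCh38.p14, 250 bases before to 50 after each start) held 42 of the 50 members, with 57 windows. An element of 3 units, read as GAANNTTC followed by NNGAA or as TTCNNGAA followed by NNTTC, on either strand, lay in windows of 7 of these 42 members, in 7 of 57 windows (12.3%), against 0.490% of all 35116 windows and 0.307% of 13345 windows of the genes that passed that filter. The stretches that hold it follow, 5′ to 3′ on the strand of the gene, with the 3-unit elements in capitals (overlapping elements run together). They allow the elements of genes with different changes to be compared, and no link between element and change was tested. Elements of HSPD1 and CHORDC1 overlap into longer runs, while those of the other genes shown do not. HSP90AA1, HSPD1 and CHORDC1 fell in the KO-labelled pair, HSP90AB1, HSPA8 and DNAJA1 did not pass the threshold and DNAJB6 was higher.
HSP90AA1, chr14:102087085-102087154, minus strand: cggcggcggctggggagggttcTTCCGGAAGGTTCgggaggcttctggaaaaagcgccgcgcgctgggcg
HSPD1, chr2:197500041-197500090, minus strand: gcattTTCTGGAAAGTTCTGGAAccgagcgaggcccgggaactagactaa
CHORDC1, chr11:90223083-90223129, minus strand: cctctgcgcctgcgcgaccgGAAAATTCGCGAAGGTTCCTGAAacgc
HSP90AB1, chr6:44247768-44247852, plus strand: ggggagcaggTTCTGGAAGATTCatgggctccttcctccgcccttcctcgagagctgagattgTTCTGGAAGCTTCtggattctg
HSPA8, chr11:123062157-123062211, minus strand: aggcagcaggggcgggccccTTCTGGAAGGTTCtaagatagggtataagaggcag
DNAJA1, chr9:33025273-33025292, plus strand: gcgGAACTTTCCAGAAcgct
DNAJB6, chr7:157336854-157336913, plus strand: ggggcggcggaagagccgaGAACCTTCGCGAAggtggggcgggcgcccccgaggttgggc

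HSPA8 held a further element at bases -230 to -218 from its start, in the same window. The DNAJA1 element lies just after the start, at bases 4 to 16. The stretches shown for HSP90AA1, HSPD1, HSP90AB1 and HSPA8 lie before an inner start of each gene, inside its span. A match is a description of letters and not a bound site. A 2-unit element (GAANNTTC or TTCNNGAA, which the 3-unit element contains) lay in windows of 19 of the 42 members, 35.1% of their windows against 13.5% of all windows. The E-box CACGTG lay in windows of 5 members, 10.5% of windows against 7.26% of all windows and 9.52% of those of the filtered genes. The CCAAT box was in 31.6% of the members' windows and 34.6% of all windows.

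The 4 libraries held 22503981 to 52163811 fragments assigned to genes, with WT replicate 2 the shallowest. Mitochondrial transcripts took 6.54% to 7.91% of them. RIOX2 measured 8.60 and 8.24 FPKM in the WT pair against 9.23 and 9.82 FPKM in the KO-labelled pair. Its log2 change was 0.16 (limma adjusted p = 0.0546). It passed as higher in 6 of 15 alternative settings, among them median-of-ratios scaling (limma adjusted p = 0.0232). Its RNA was thus not lower where the labels give a knockout, which leaves the label unchecked. Every direction here is from the WT pair to the pair labelled KO. Values of a pair are given with replicate 1 first. The line markers VIM, CD44, EGFR, KRT8 and KRT18 were present at 47.2 to 2394 FPKM, ESR1 and PGR stood at 0 to 0.0012 FPKM, and ERBB2, the other receptor gene of the triple-negative label, at 12.7 to 14.3 FPKM. Of 9 markers of leukocytes, endothelium, fibroblasts and adipocytes, 6 stayed at or below 1.27 FPKM in every library and the highest, COL1A1, measured 1.86 to 3.01 FPKM. The 3 of these 9 that passed the filter, COL1A1, PECAM1 and PDGFRB, were all called higher in the KO-labelled pair (log2 changes 0.37, 0.26 and 0.19), and their part in the results below was not tested.

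Most chaperone genes fell in the KO-labelled pair. Of 49 tested, 31 were lower and 2 were higher, and 16 did not pass the threshold (limma on log2(FPKM + 1), adjusted p under 0.05 by Benjamini-Hochberg over 11716 genes). That is 63.3% lower and 4.08% higher, where over all genes tested 28.4% were lower, 21.6% were higher and 49.9% passed in either direction. The median log2 change was −0.27 for the 49 and −0.041 for all genes. Both KO libraries lay below both WT libraries for 38 members and above them for 2. For all genes these shares were 44.6% and 32.9%. With the median change of each gene's chromosomal neighbourhood subtracted (the other tested genes of its 20 Mb bin), 26 members were lower and the median was −0.18. These 26 hold 23 of the 31 falls called without it, and 8 were lost. Over all genes tested, the same setting gave 19.6% lower and 19.9% higher, with a median of −0.00044.

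Together the 50 members took 1.67% and 1.60% of all fragments in WT replicates 1 and 2 and 1.40% and 1.44% in KO replicates 1 and 2. Levels of the tested members ran from 2.28 FPKM (HSPA2, KO replicate 1) to 1078 FPKM (HSPA8, WT replicate 1), as the plot of levels by library shows. HSPA8, the constitutive cytosolic HSP70, was the highest (mean ± SD 996 ± 116 FPKM in WT, where n = 2 here and below), followed by HSP90AB1 (777 ± 21.4) and HSP90AA1 (666 ± 28.5). Of 19 members with a WT mean of at least 100 FPKM, 16 were lower, and of these 19 HSPA8, HSP90AB1 and DNAJA1 did not pass. Among the 24 members from 10 to 100 FPKM, 13 were lower and 2 higher. Of the 6 tested members below 10 FPKM, 2 were lower. Shares of all genes in these level classes were not computed, so the counts show no trend particular to chaperones. With a minimum mean of 5 FPKM, 31.6% of all genes tested were lower.

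**Figure D1:**
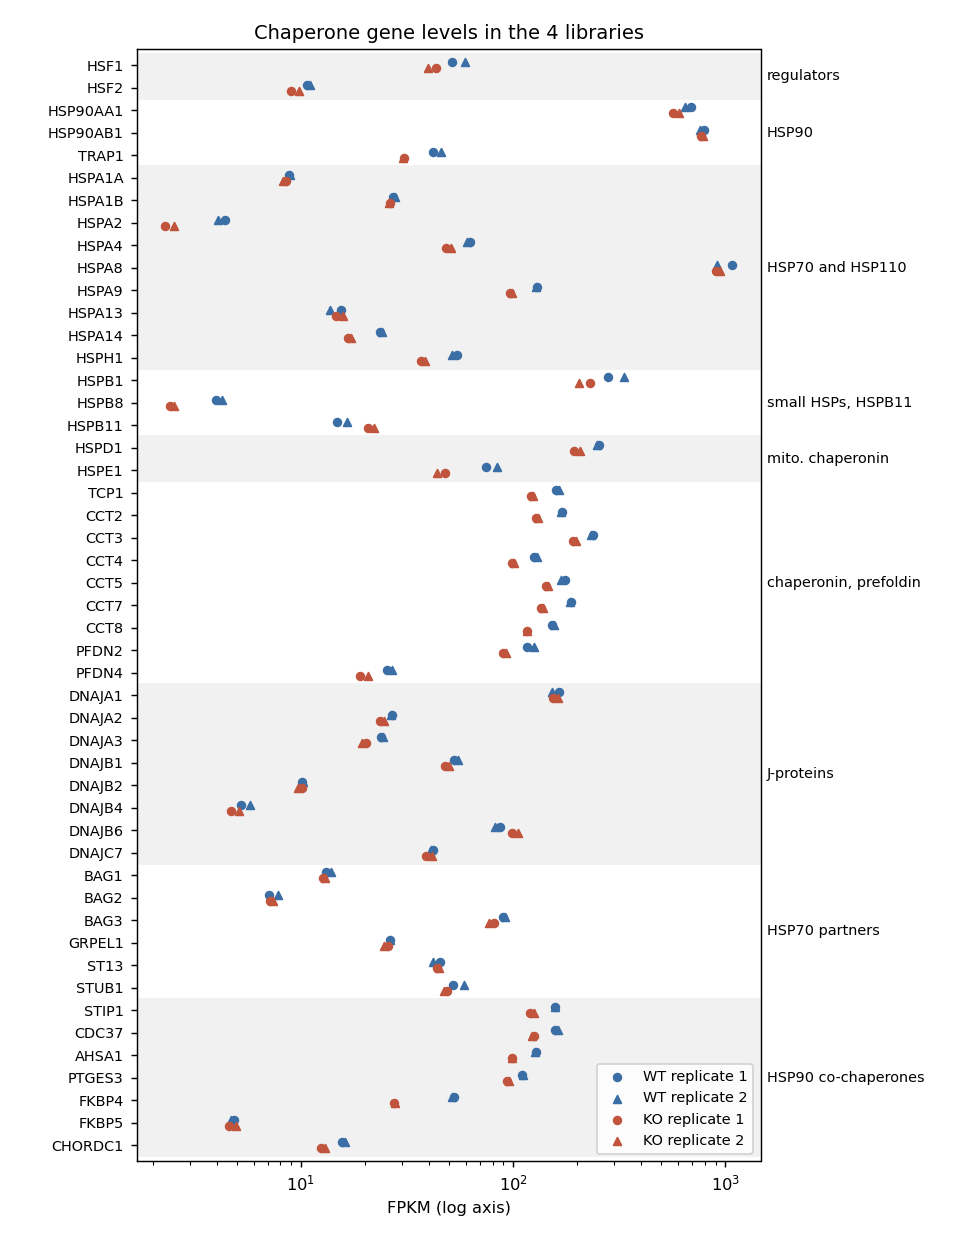
FPKM (log axis) of the 49 tested chaperone genes in WT replicates 1 and 2 and KO replicates 1 and 2, ordered by role; each point is 1 library. HSPA8, HSP90AB1 and HSP90AA1 stand highest, and for most genes both KO points lie to the left of both WT points.

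HSF1, the stress-activated regulator, measured 51.4 and 59.2 FPKM in the WT pair against 43.1 and 39.7 FPKM in the KO-labelled pair. Both KO libraries were below both WT libraries, and the log2 change was −0.41 (SE 0.078, limma adjusted p = 0.00414). HSF1 lies near the end of the long arm of chromosome 8 (144291603 to 144314720; deposited positions lay within 1000 bases of GRCh38.p14 ones for 98.4% of genes), where the other genes of its bin had a median change of −0.26. With that median subtracted its change was −0.15 and no longer past the threshold (adjusted p = 0.176). HSF2, a paralog active in development and in concert with HSF1, measured 10.7 and 11.1 FPKM in the WT pair against 9.02 and 9.83 FPKM in the KO-labelled pair. Its fall of −0.19 (adjusted p = 0.0333) was lost without either KO library (adjusted p = 0.289 without KO replicate 1 and 0.0644 without KO replicate 2), with its bin median of −0.018 subtracted (0.0565) and with the replicate number as a block (adjusted p = 0.0550).

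Of the 3 HSP90 paralogs 2 were lower, where 28.4% of all genes tested were. The mitochondrial TRAP1 measured 42.2 and 45.6 FPKM in the WT pair against 30.6 and 30.2 FPKM in the KO-labelled pair, a change of −0.51 (SE 0.058, limma adjusted p = 0.000284). HSP90AA1, the stress-inducible cytosolic form, measured 687 and 646 FPKM in the WT pair against 567 and 605 FPKM in the KO-labelled pair. Its change of −0.19 (adjusted p = 0.0333) was lost without WT replicate 1, KO replicate 1 or KO replicate 2 (adjusted p = 0.0514 to 0.297) and under the replicate block (0.0520). With the bin median of HSP90AA1 (0.16) subtracted, its change was −0.34 and the call was kept. HSP90AB1, the constitutive cytosolic form, measured 792 and 762 FPKM in the WT pair against 769 and 787 FPKM in the KO-labelled pair. These ranges overlapped, and the 95% interval of its log2 change ran from −0.12 to 0.13. The ratio of HSP90AB1 to HSP90AA1 was 1.15 and 1.18 in the WT libraries and 1.36 and 1.30 in those labelled KO. With 2 libraries against 2, an exact permutation test of such a ratio cannot go below p = 0.333, so it was not tested.

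In the HSP70 and HSP110 family 5 of 9 members were lower (55.6%) and 0 were higher, where 28.4% of all genes tested were lower and 21.6% higher. HSPA2, an HSP70 best known from the testis, fell most in relative terms, from 4.37 and 4.08 FPKM in the WT pair to 2.28 and 2.52 FPKM in the KO-labelled pair (log2 change −0.62, SE 0.066, limma adjusted p = 0.000227). It rested on 236 to 507 fragments per library, and its bin had a median of 0.080. HSPH1, the HSP110 that acts as an exchange factor for HSP70, fell from 54.2 and 51.5 FPKM to 37.0 and 38.4 FPKM (−0.48, SE 0.055). HSPA14, a ribosome-bound HSP70, fell from 23.7 and 24.03 FPKM to 16.7 and 17.3 FPKM (−0.47, SE 0.053). The median of its bin on chromosome 10 was −0.32, and with that subtracted its change was −0.15 (adjusted p = 0.0554). The mitochondrial HSP70 HSPA9 (mortalin) fell by 0.40 and HSPA4, an HSP110 relative, by 0.30 on the log2 scale. HSPA13, a microsomal HSP70, had a change of 0.056 with overlapping groups.

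The most abundant and the heat-inducible HSP70 genes did not pass the threshold. HSPA8 measured 1078 and 914 FPKM in the WT pair against 908 and 941 FPKM in the KO-labelled pair, with overlapping ranges and a 95% interval of −0.29 to 0.088. Without WT replicate 2 its change was −0.22 and passed the threshold (adjusted p = 0.00411). HSPA1B, an inducible form, measured 27.2 and 27.7 FPKM in the WT pair against 26.3 and 26.0 FPKM in the KO-labelled pair, with an interval of −0.19 to 0.052. HSPA1A gave 8.82 and 8.85 FPKM against 8.53 and 8.21 FPKM, with an interval of −0.20 to 0.059. The pair is nearly identical: 72.6% of the 50-base words of the longest HSPA1A transcript also occur in HSPA1B, so their reads cannot be told apart with certainty. With the bin median of 0.11 subtracted both passed as falls (−0.18 each, adjusted p = 0.0337 for HSPA1A and 0.0263 for HSPA1B). Their promoters are shown to compare the copies, with the 2-unit element in capitals.
HSPA1A, chr6:31815413-31815472, plus strand: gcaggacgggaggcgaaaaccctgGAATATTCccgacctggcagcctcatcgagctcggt
HSPA1B, chr6:31827609-31827668, plus strand: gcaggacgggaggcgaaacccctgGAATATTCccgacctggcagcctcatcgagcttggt

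Small heat shock proteins hold unfolded proteins without ATP. HSPB1 (HSP27), the abundant one in these cells, measured 280 and 335 FPKM in the WT pair against 231 and 204 FPKM in the KO-labelled pair (log2 change −0.50, SE 0.10, limma adjusted p = 0.00857). HSPB8, which works with BAG3 in selective autophagy, fell from 3.997 and 4.23 FPKM to 2.40 and 2.53 FPKM (−0.56, SE 0.062), from 177 to 336 fragments per library. HSPB11 went the other way. It measured 14.8 and 16.6 FPKM in the WT pair against 20.8 and 21.999 FPKM in the KO-labelled pair (0.43, SE 0.067, adjusted p = 0.00136). HSPB11 is named with this family but is known as a subunit of intraflagellar transport. Its bin on chromosome 1 had a median of 0.23, and the change left after subtracting that was 0.19 (adjusted p = 0.0516).

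**Figure D2:**
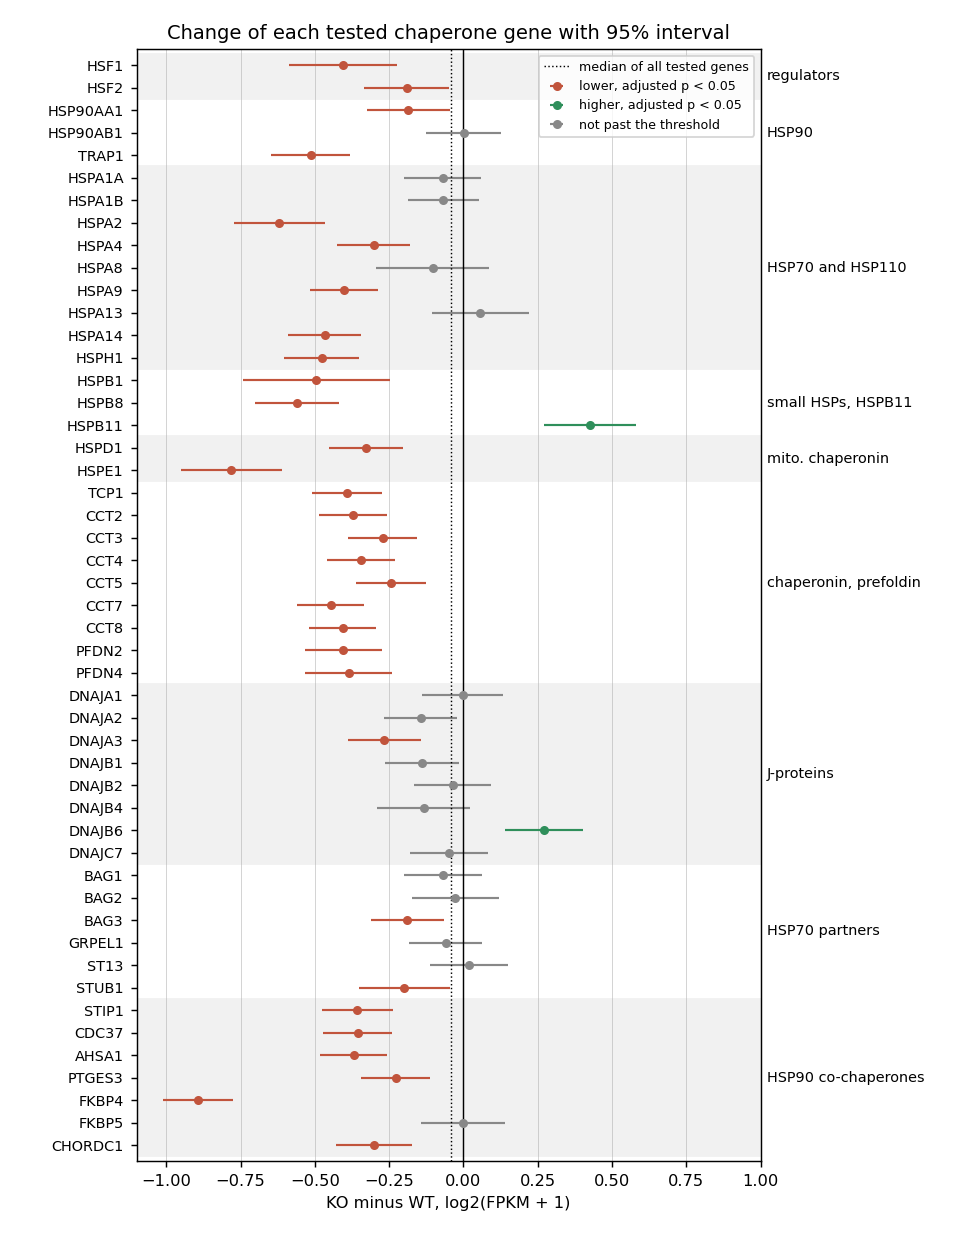
Log2 change (KO minus WT, on log2(FPKM + 1)) of the 49 tested chaperone genes with 95% intervals from limma, ordered by role; red marks lower, green higher and grey genes not past the threshold, and the dotted line is the median of all tested genes. HSPB11 and DNAJB6 alone lie to the right as called genes, and FKBP4 lies farthest to the left.

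Among the members of the mitochondrial matrix 5 of 6 were lower, where 28.4% of all genes tested were, and GRPEL1 did not pass. The call of DNAJA3 was lost with its bin median subtracted. The mitochondrial chaperonin is made of HSPD1 (HSP60), which forms the ring, and HSPE1 (HSP10), its lid. HSPD1 measured 255 and 248 FPKM in the WT pair against 194 and 206 FPKM in the KO-labelled pair (log2 change −0.33, SE 0.054, limma adjusted p = 0.00162). HSPE1 measured 74.6 and 83.9 FPKM in the WT pair against 47.7 and 43.6 FPKM in the KO-labelled pair (−0.78, SE 0.073, adjusted p = 0.000157). Neither gene's groups overlapped, and 44.6% of all tested genes also had both KO libraries below both WT libraries. The HSPE1 value per HSPD1 value was 0.293 and 0.339 in the WT libraries and 0.246 and 0.212 in those labelled KO, so the lid gene was lower relative to the ring gene in both KO libraries. That difference was not tested.

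These 2 genes stand head to head on chromosome 2 and share a promoter region, which is why it is shown. The bases between the outermost starts in the table follow, on the strand of HSPE1, with the E-box CACGTG in capitals.
HSPE1, chr2:197500275-197500378, plus strand: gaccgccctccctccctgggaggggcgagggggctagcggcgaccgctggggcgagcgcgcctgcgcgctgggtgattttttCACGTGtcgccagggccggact

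Exons of HSPE1 and the readthrough gene HSPE1-MOB4 overlap over 40.6% of the exonic bases of HSPE1, and HSPE1-MOB4 was listed with 0 to 1 fragments per library. Reads shared by overlapping genes may have been dropped in counting, so the level of HSPE1 is uncertain. HSPD1 shares 24.8% of its 50-base words with other genes, most with its pseudogene HSPD1P1. For ST13 this share was 30.7%, for HSP90AB1 18.8%, for HSP90AA1 17.5% and for HSPA8 15.4%, so reads of these genes may also be split with near copies. Of the other mitochondrial members, HSPA9 fell from 129 ± 0.912 to 97.5 ± 1.74 FPKM, and DNAJA3, its J-protein, fell by 0.27. GRPEL1, which exchanges nucleotide on HSPA9, measured 26.2 and 26.4 FPKM in the WT pair against 25.7 and 24.7 FPKM in the KO-labelled pair, with a 95% interval of −0.18 to 0.064. The other genes of its bin, on the short arm of chromosome 4, had a median of −0.40. With that median subtracted its change was 0.35 (adjusted p = 0.00168), the other direction.

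The list holds 7 subunits of the cytosolic chaperonin TRiC, whose ring folds actin and tubulin, and 2 of prefoldin, which hands it these chains. All 9 were lower, where 28.4% of all genes tested were. The 7 chaperonin subunits lay between −0.24 (CCT5) and −0.45 (CCT7), with a median of −0.37 and an SD of 0.073 among them. CCT7 measured 188 and 186 FPKM in the WT pair against 136 and 138 FPKM in the KO-labelled pair (SE 0.049, limma adjusted p = 0.000258). CCT8 fell from 153 and 156 FPKM to 116 and 116 FPKM (−0.41, SE 0.049). TCP1, CCT2, CCT3 and CCT4 fell by 0.39, 0.37, 0.27 and 0.34. PFDN2, a prefoldin subunit, fell from 116 and 125 FPKM to 89.9 and 92.2 FPKM (−0.40, SE 0.056), and PFDN4 fell by 0.39.

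The groups did not overlap for any of these 9 genes, as the plot relative to the WT mean shows; 44.6% of all tested genes also had both KO libraries below both WT libraries. The summed level of the 7 subunits was 1210 and 1205 FPKM in the WT libraries and 937 and 957 FPKM in those labelled KO. CCT6A, a subunit that is not a member here, fell by 0.25 (adjusted p = 0.00475). Of the 4 prefoldin subunits that are not members, VBP1, PFDN6 and PFDN1 fell by 0.32, 0.31 and 0.18. PFDN5, the most abundant prefoldin subunit, had a change of −0.15 that did not pass (adjusted p = 0.0594). The calls of CCT3 and CCT5 were lost without KO replicate 1 (adjusted p = 0.0524 and 0.0715), and that of PFDN4 with its bin median of −0.21 subtracted (adjusted p = 0.0558).

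**Figure D3:**
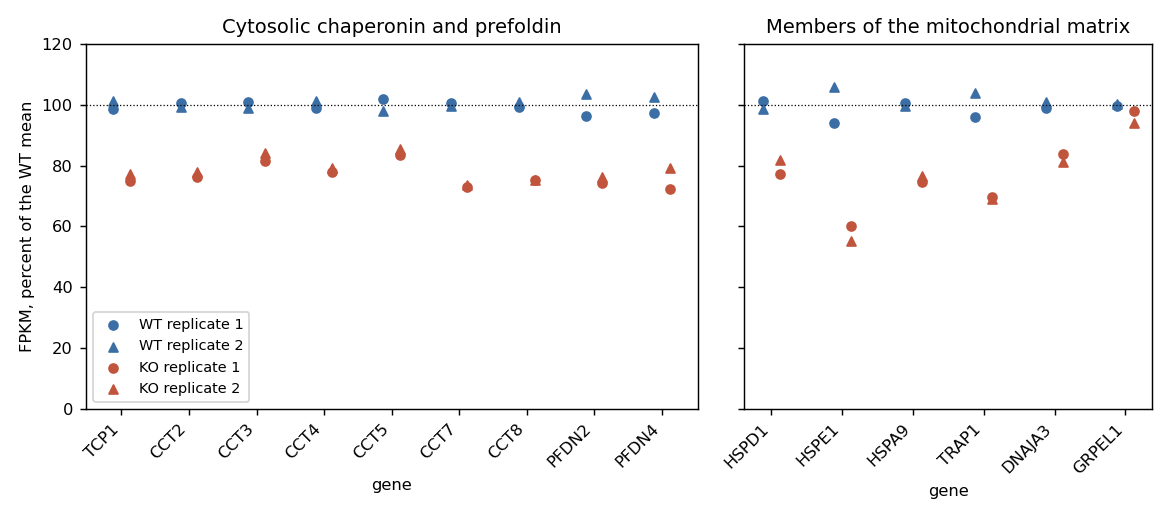
FPKM of each library as a percent of the WT mean for the genes of the cytosolic chaperonin and prefoldin (left) and for members of the mitochondrial matrix (right); blue points are WT and red points KO libraries, circles replicate 1 and triangles replicate 2. All KO points lie below the WT points, close together for the chaperonin subunits, lowest for HSPE1 and nearest to 100 for GRPEL1.

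J-proteins deliver clients to HSP70 and start its ATP hydrolysis. Among the 8 listed, 1 was lower, 1 was higher and 6 did not pass. For all genes tested 28.4% were lower, 21.6% were higher and 49.9% passed in either direction. DNAJB6, known for holding back polyglutamine aggregation, rose from 86.8 and 82.3 FPKM in the WT pair to 99.1 and 106 FPKM in the KO-labelled pair (log2 change 0.27, SE 0.057, limma adjusted p = 0.00511). Its bin had a median of −0.032, and the call was lost without KO replicate 2 (0.23, adjusted p = 0.0761). DNAJA3 fell from 23.8 and 24.3 FPKM to 20.2 and 19.5 FPKM (−0.27, SE 0.054, adjusted p = 0.00424), which no longer passed when KO replicate 2 was left out (adjusted p = 0.0623) or when the bin median of −0.13 was subtracted (0.0718). DNAJA2 measured 26.9 and 26.6 FPKM in the WT pair against 23.6 and 24.6 FPKM in the KO-labelled pair, with an adjusted p of 0.0545. DNAJB1, the heat-inducible HSP40, was close to it at −0.14 (adjusted p = 0.0622). Each passed as a fall in 5 of 15 alternatives, among them voom on fragments (adjusted p = 0.0420 for DNAJA2 and 0.0437 for DNAJB1). With its bin median of −0.17 subtracted, however, DNAJB1 was at 0.029 (0.700). DNAJB2, DNAJB4 and DNAJC7 had changes of −0.036, −0.13 and −0.050, with no call. With its bin median of 0.22 subtracted DNAJB4 passed as a fall (−0.36, adjusted p = 0.00484), as it did without WT replicate 1 (−0.19, adjusted p = 0.0121). DNAJA1, the most abundant J-protein on the list, measured 159 ± 8.23 FPKM in the WT pair and 159 ± 6.21 FPKM in the KO-labelled pair.

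Among the other partners of HSP70, 2 of 6 were lower (33.3%, near the 28.4% of all genes) and 0 higher. BAG3, a stress-induced exchange factor that also binds small heat shock proteins, measured 89.4 and 91.8 FPKM in the WT pair against 81.4 and 77.4 FPKM in the KO-labelled pair (log2 change −0.19, limma adjusted p = 0.0192). STUB1 (CHIP), the ubiquitin ligase that marks chaperone clients for degradation, measured 52.0 and 58.5 FPKM in the WT pair against 48.9 and 47.0 FPKM in the KO-labelled pair (−0.20, adjusted p = 0.0377). Both calls were weak. They were lost without either KO library (adjusted p = 0.0703 and 0.214 for BAG3, 0.101 and 0.209 for STUB1), and that of STUB1 also without WT replicate 2 (0.105) or with the trend of gene length removed (0.144). With bin medians subtracted neither passed (BAG3 −0.12, adjusted p = 0.116, and STUB1 −0.071, adjusted p = 0.426). Exons of JMJD8 on the opposite strand cover 49.0% of STUB1, and the strand setting of the counting is not given. BAG1 measured 13.2 and 13.9 FPKM in the WT pair against 12.7 and 13.0 FPKM in the KO-labelled pair. For BAG1, BAG2 and ST13 the 95% intervals together ran from −0.20 to 0.15. Exons of other genes also overlap TRAP1 (20.6% of its exonic bases), TCP1 (19.3%), HSPA14 (18.05%) and BAG2 (36.0%).

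Co-chaperones of HSP90 were lower in 6 of 7 cases (85.7%), against 28.4% of all genes tested. FKBP4 (FKBP52), an immunophilin that helps steroid receptors to bind hormone and reach the nucleus, had the largest change of all members. It measured 52.9 and 51.3 FPKM in the WT pair against 27.5 and 27.7 FPKM in the KO-labelled pair (log2 change −0.89, SE 0.052, limma adjusted p = 1.31e-05). This is a decrease by 47.0%, and 0.947% of the tested genes fell more. FKBP4 lies on the short arm of chromosome 12 (2794970 to 2805423), where its bin median was −0.13. Its paralog FKBP5 (FKBP51), which restrains the same receptors and is itself a glucocorticoid target, measured 4.86 and 4.67 FPKM in the WT pair against 4.58 and 4.93 FPKM in the KO-labelled pair. Its ranges overlapped, and the 95% interval of its change was −0.14 to 0.14. The ratio of FKBP4 to FKBP5 was 10.9 and 10.98 in the WT libraries and 5.998 and 5.61 in those labelled KO.

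AHSA1, which stimulates the HSP90 ATPase, fell from 129 and 128 FPKM in the WT pair to 99.1 and 98.8 FPKM in the KO-labelled pair (log2 change −0.37, SE 0.049, limma adjusted p = 0.000598). STIP1 (HOP), the bridge between HSP70 and HSP90, fell from 157 in both WT libraries to 120 and 125 FPKM (−0.36, SE 0.052). CDC37, the adaptor for kinases, fell by 0.36, CHORDC1 by 0.30 and PTGES3 (p23), which closes the HSP90 clamp, by 0.23. The call of PTGES3 was lost without either KO library (adjusted p = 0.0867 and 0.0546) and with its bin median of −0.17 subtracted (0.374).

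Chromosomal position was set beside the changes because whole bins were shifted in these libraries. Bin medians could be given for 48 members and ran from −0.40 to 0.23. Of these members, 42 (87.5%) lay below the median of their own bin, where 50.01% of all tested genes did. All 31 called falls were below their bin median, which says little, since they were picked for their low values. Whether copy number differs between the cells was not tested.

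**Figure D4:**
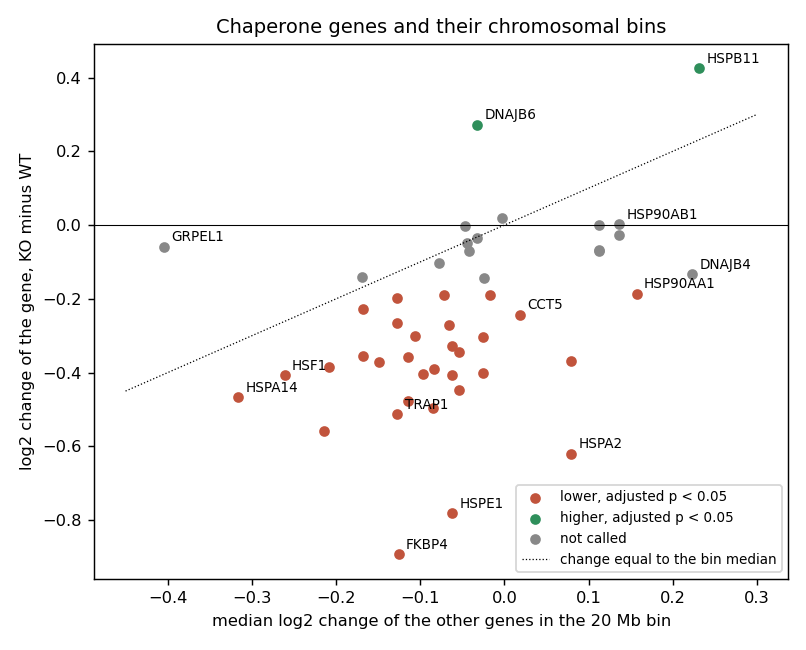
Log2 change of each of the 48 chaperone genes with a bin median (vertical axis) against the median log2 change of the other tested genes in its 20 Mb bin (horizontal axis); the dotted line marks a change equal to that of the bin. Of the 48 points 42 lie below the line, FKBP4 and HSPE1 farthest, while GRPEL1 lies above it.

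Related lists that hold no member were counted in the same way. Over all genes tested, 28.4% were lower and 21.6% higher, with a median of −0.041. Of 23 chaperones and folding enzymes of the endoplasmic reticulum (ER), 4 were lower and 4 higher (17.4% each), with a median of 0.0061. There HYOU1, the ER relative of HSPH1, fell by 0.37 and DNAJC10 by 0.22, while the prolyl isomerase PPIB rose by 0.43 and the disulfide isomerase PDIA3 by 0.40. With bin medians of 0.25 and 0.36 subtracted, PPIB was at 0.18 and PDIA3 at 0.037, no longer past the threshold (adjusted p = 0.595), and DNAJC10 was at −0.16 (0.0789). DNAJC10 also lost its call without either KO library (0.172 and 0.0775). HSPA5 (BiP) and HSP90B1 (GRP94) did not pass, with changes of 0.12 and 0.023. In a list of mitochondrial proteases, import proteins and folding partners, 11 of 21 were lower (52.4%) and 2 higher (9.52%), with a median of −0.21. The import pore gene TOMM40 fell by 0.55 and the protease CLPP by 0.53, and SPG7 rose by 0.37 and CLPX by 0.27. CLPX lost its call with its bin median of 0.25 subtracted (0.016, adjusted p = 0.871), with no filter (0.0704) and without KO replicate 2 (0.0996).

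Other cytosolic chaperones and partners went both ways, with 14 of 32 lower (43.75%) and 10 higher (31.25%), and a median of −0.13. DNAJC5 fell by 0.52 and CACYBP by 0.47, and DNAJB14 rose by 0.65 and DNAJC9 by 0.45. Bins of these 4 genes had medians of −0.37, −0.10, 0.27 and 0.35, in that order, and with these subtracted DNAJC5 was at −0.16 (adjusted p = 0.0461), CACYBP at −0.37, DNAJB14 at 0.37 and DNAJC9 at 0.092, no longer called (0.212). A list of steroid receptor targets was set beside FKBP5, and it also holds the glucocorticoid receptor gene NR3C1 itself. Of its 7 tested genes, 2 were lower (28.6%) and 4 higher (57.1%), with a median of 0.18. DUSP1 fell by 0.33 and PER1 by 0.18, and TSC22D3 rose by 0.28 and SGK1 by 0.22. The fall of PER1 (adjusted p = 0.0493) was lost in 9 of 15 alternatives, among them the replicate block (0.0829), subtraction of bin medians (−0.079, 0.366) and either KO library left out (0.0810 and 0.376). The rise of SGK1 was likewise lost without either KO library (0.0858 and 0.178), and that of TSC22D3 without KO replicate 1 (0.0508). With its bin median of 0.36 subtracted, TSC22D3 changed direction (−0.074, limma adjusted p = 0.338). The differences between these lists and the members were not tested.

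**Figure D5:**
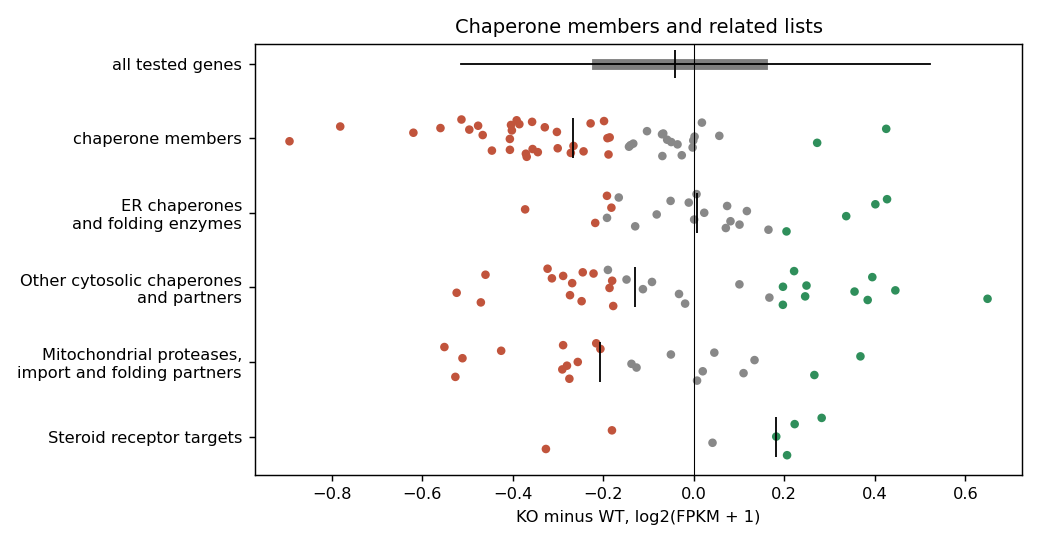
Log2 change (KO minus WT) of the tested chaperone members and of 4 related lists, 1 point per gene, coloured red for lower, green for higher and grey for not past the threshold; vertical ticks are medians, and the top row shows the median, the middle 50% (thick bar) and the range from 5% to 95% of all tested genes. The member points lie mostly left of 0, and the ER points lie on both sides of it.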

How the data were processed

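RNA sequencing of 2 WT and 2 KO libraries of MDA-MB-231 cells was grouped by the sample titles. The authors deposited 1 table of FPKM values per gene with Entrez IDs, exon coordinates and length, per the file headers. STAR, Subread and DESeq2 are named in the submitters' processing notes, with no version, and no source used here gives the genome build or the strand setting. In each library the product of FPKM and length in kilobases added up to 1000000, and dividing it by its smallest value above 0 gave whole fragments for 100% of values (tolerance 0.001), which gave depth. Symbols came from RefSeq (GRCh38.p14) for 96.0% of genes.

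The test was limma 3.58.1 in R 4.3.3 with the options trend and robust, run over genes whose mean reached 1 FPKM, on the log2(FPKM + 1) scale, which understates changes of low genes, with Benjamini-Hochberg adjustment at 0.05. Where 1 library was left out, the one remaining beside it was taken to vary like the other pair. Alternatives were a pseudocount of 0.1, no filter, a minimum of 5 FPKM, median-of-ratios scaling, voom on fragments, limma with neither option, a replicate block, bin medians subtracted (20 Mb), the length trend removed (spline with 5 degrees of freedom) and each library left out. A crossed block and removal of length and GC trends (GENCODE 29, known for 97.0% of tested genes) were added after seeing the data. The limma step was also run on simulated fragments drawn independently for each library, with far fewer changed genes than were called here and no shifted bins. Such a run cannot show how the step behaves where libraries are related or whole bins shift. Values in every library are given for HSF1, HSF2 and the 3 largest changes in each role group, and for other members chosen after their values were seen; from related lists the 2 largest rises and falls were named, and CCT6A, the other prefoldin subunits, HSPA5 and HSP90B1 were chosen after their values were seen. The members and lists were chosen with earlier results of these data known.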

Additional observations from a re-analysis of the deposited data

How the results depend on the processing

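Of 732 values of tested members under the alternatives, 677 kept their side of the threshold, 39 lost it, 15 gained it in the same direction and 1 (GRPEL1 with bin medians subtracted, 0.35) passed in the other direction. In 21 of the 677 the sign changed, for 10 members whose change passed on neither side. Among the related genes TSC22D3 changed direction in that setting (−0.074). The number of members lower ranged from 24 to 33 over all alternatives, against 31, and none of the 31 changed sign. Without 1 library, the genes lower over the whole table numbered 1962 to 4001 (3323 with all 4) and those higher 1559 to 3076 (2527), the members higher 1 to 2 (2; DNAJB6 was lost without KO replicate 2), and the related genes lower 15 to 35 (31) and higher 10 to 24 (20); the low ends came without a KO library. Related genes lower numbered 20 with bin medians subtracted, and related genes higher 12 with no filter and 13 with the length and GC trends removed. With the replicate number as a block 29 members were lower, since HSF2 and HSP90AA1 were lost, and 3029 genes were lower and 2348 higher. The deviations of same-numbered libraries correlated at −0.22, and crossed numbers gave 33 members lower, with 3821 genes lower and 2839 higher. Since the labels tie no number to a culture or day, the libraries were taken as unpaired. HSF2, HSP90AA1, BAG3 and STUB1 were also lost with no filter and with median-of-ratios scaling, and HSPB1 with no filter (adjusted p = 0.0506). CRYAB, with 0 to 1 fragments per library, was tested only with no filter, where it was not called.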
